A study of Homo sapiens with 4 samples.

Results

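The 10 genes described here are transcriptional targets of the tumour suppressor p53: GDF15, CDKN1A, GADD45A, BTG2, PLK2, BBC3, FAS, TP53INP1, MDM2 and ZMAT3. Their members in the data were the BRPF3 peaks lying within 5 kb of each start site in hg19, which made up 10 of 14039 merged regions, 1 per gene. They comprised 10 of 13431 peaks in the HU list, 11 of 11532 in the mimosine list and 10 of 13160 in the asynchronous list. The members were chosen by the presence and position of peaks in these same lists, and the genes with results of these data known, so the values below describe the genes and carry no test.

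Chromatin immunoprecipitation followed by sequencing (ChIP-seq) had been performed on 4 libraries of RKO, an established human colon carcinoma line that is known to carry wild-type p53. HU cells had spent 22 h in 0.5 mM mimosine, a plant amino acid that arrests cells near the start of DNA replication, before a release of 3 h and then 3 mM hydroxyurea, which depletes nucleotide pools, for 1 h and 30 min. Mimosine cells had the arrest alone, 22 h in 0.5 mM, and asynchronous cells were untreated. A rabbit antibody against BRPF3 was used on each of the 3, and rabbit IgG on a separate HU sample, which served as the control for every list. The titles and the antibody field name BRPF3, whereas a description field names BRPF1/2. With 1 library per condition, library and condition cannot be told apart, and no difference between lists has a replicate or a p-value. The read depth of the libraries is unknown.

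p53 is stabilised by DNA damage and other stress and binds response elements in or near its target genes. Its targets include genes that halt the cell cycle, genes that promote cell death, and genes that feed back on p53 itself. BRPF3 is a scaffold subunit that joins a MYST-family histone acetyltransferase to chromatin, and such complexes are known to sit at the start sites of active genes. The question addressed was where BRPF3 lay at these genes in the 3 conditions.

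In the HU list every one of the 10 start sites lay inside a BRPF3 peak. In the mimosine list 9 genes had a peak within 5 kb and 8 had the start site inside it, and the same counts, 9 and 8, held in the asynchronous list. PLK2 was the gene without a peak in mimosine and asynchronous cells, and GDF15 was the gene whose mimosine and asynchronous peaks lay downstream of the start site. The other 8 genes had the start site inside a peak of all 3 lists. The share of all gene start sites inside a peak is not known, since no annotation of hg19 was used. These counts therefore do not set the genes apart from other genes. Of all merged regions, 71.5% were held by all 3 lists and 8.08% by the HU list alone. At each of the 9 genes with peaks in all 3 lists, the HU peak spanned every peak of the mimosine and asynchronous lists within 5 kb. At 7 of the 10 genes the merged region held exactly 1 peak of every list, as 61.6% of all regions did. In those regions the HU peak held all of the mimosine peak in 98.3% and all of the asynchronous peak in 49.9%, and at the 7 genes it did so in every case.

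The sequences upstream of GDF15 and PLK2 are shown because these were the genes whose start site was held by an HU peak alone. Each line gives the 250 bases before the RefSeq start in GRCh38.p14, read in the direction of transcription (GDF15 on the plus strand of chromosome 19, PLK2 on the minus strand of chromosome 5), with CG dinucleotides in capitals.
GDF15: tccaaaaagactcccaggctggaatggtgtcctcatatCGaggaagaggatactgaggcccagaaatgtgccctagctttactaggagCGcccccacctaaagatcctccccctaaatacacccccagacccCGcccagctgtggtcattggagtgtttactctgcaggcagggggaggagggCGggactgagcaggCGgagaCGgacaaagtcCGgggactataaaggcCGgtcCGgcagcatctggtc
PLK2: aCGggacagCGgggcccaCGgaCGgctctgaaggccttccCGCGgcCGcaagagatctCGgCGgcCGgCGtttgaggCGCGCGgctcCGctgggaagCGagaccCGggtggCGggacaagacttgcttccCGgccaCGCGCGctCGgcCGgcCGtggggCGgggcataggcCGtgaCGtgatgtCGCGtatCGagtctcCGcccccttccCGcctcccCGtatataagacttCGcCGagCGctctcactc
The upstream sequences of these 2 genes differed in composition. PLK2 had 37 CG dinucleotides and a G+C content of 71.2%, and GDF15 had 9 and 58.4%, beside a median of 11 (interquartile range 3 to 23) over 35114 RefSeq promoter windows of the same length. The letters TATAAA occurred 29 bp before the GDF15 start, and nowhere in the PLK2 window on either strand. Of all windows, 10.7% held them. Only these exact letters were searched, so the similar run TATATAAG near the end of the PLK2 window was not counted. The windows are therefore not shown to differ in having a TATA element. The GC box letters GGGCGG, searched on both strands, occurred 2 times in each window and in 42.6% of all windows.

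GDF15 encodes a secreted stress cytokine of the TGF-beta superfamily. Its HU peak, chr19:18496528-18499973, was 3446 bp wide and ran from 442 bp upstream to 3003 bp downstream of the start site. The mimosine peak, chr19:18499114-18499505, covered 392 bp, from 2144 to 2535 bp downstream, and the asynchronous peak, chr19:18498534-18499865, covered 1332 bp, from 1564 to 2895 bp downstream. BRPF3 was thus called downstream of the start in all lists, and over the start in the HU list alone. The authors' peak score was 874 in the HU, 68.0 in the mimosine and 145 in the asynchronous list. As a rank percentile within its own list, where 100 is the highest score, the peak stood at 64.7 in HU, 10.1 in mimosine and 18.8 in asynchronous cells. The HU peak was 8.79 times as wide as the mimosine peak and 2.59 times as wide as the asynchronous peak. There were 8653 merged regions holding exactly 1 peak of every list, and of these 5 had a larger HU to asynchronous width ratio and 2 a larger gain in rank. The mimosine peak lay close to the lowest scores that were deposited, and was lost at a score of 100 or more.

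PLK2 encodes a polo-like kinase with roles in centriole duplication and in stress responses. Its HU peak, chr5:57755660-57757246, was 1587 bp wide and reached from 1276 bp upstream to 310 bp downstream of the start. The score was 132, at rank percentile 19.5 of the HU list, which made it the lowest-ranked HU peak of the 10 genes. No mimosine or asynchronous peak lay within 30 kb of this start site. A peak missing from a list says that the caller's threshold was not passed there, and with the depth unknown it does not show that BRPF3 was absent.

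CDKN1A encodes p21, the inhibitor of cyclin-dependent kinases through which p53 halts the cell cycle. Its peak was among the highest-scoring of the HU list, at 3183 (rank percentile 99.8), against 966 (82.0) in the mimosine list and 3100 (96.0) in the asynchronous list. Scores at or above 3100 are not resolved, and with such scores tied its rank was 96.4 in HU and 96.3 in asynchronous cells. The HU peak, chr6:36643271-36652112, covered 8842 bp, the mimosine peak 5199 bp and the asynchronous peak 5155 bp. Mimosine and asynchronous peaks were thus of like width but were placed differently. The HU peak began 3179 bp upstream of the start, the mimosine peak 1601 bp and the asynchronous peak 594 bp upstream, while the downstream ends lay at 5662, 3597 and 4560 bp. Relative to the asynchronous peak, the HU peak reached 2585 bp further upstream and 1102 bp further downstream.

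GADD45A, which encodes a growth arrest protein induced by DNA damage, had strong peaks in every list. Scores were 3100 in HU, 2922 in mimosine and 3100 in asynchronous cells, at rank percentiles 96.1, 96.7 and 96.0. The caller's score does not resolve peaks at or above 3100, so the HU and asynchronous peaks cannot be ordered. Widths were 7948 bp in HU, 5229 bp in mimosine and 7221 bp in asynchronous cells. The peak reached 2882 bp below the start-site coordinate in HU, 792 bp in mimosine and 2700 bp in asynchronous cells, so the narrower mimosine peak differed mainly on that side.

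BTG2 encodes an antiproliferative protein that takes part in mRNA deadenylation. Its peak, chr1:203273617-203278103 in the HU list, was 4487 bp wide there, 1881 bp wide in mimosine and 2597 bp wide in asynchronous cells. Its score was 1644 in HU, 607 in mimosine and 577.5 in asynchronous cells, at rank percentiles 82.1, 71.7 and 50.9. The gene therefore ranked highest in the HU list and lowest in the asynchronous list, with 1554 bp of the added HU width downstream and 336 bp upstream. The mimosine peak began 113 bp before the start site, the closest upstream edge among the peaks that held a start.

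BBC3 encodes PUMA, a BH3-only protein that triggers apoptosis. Its peaks were broad in all lists, 8287 bp in HU, 7566 bp in mimosine and 7565 bp in asynchronous cells, and the HU peak was chr19:47728839-47737125. The mimosine peak was 1.00 times as wide as the asynchronous peak. Scores were 3100, 2681 and 1143, at rank percentiles 96.1, 96.0 and 72.6. BBC3 thus kept its width while its rank differed by 23.5 percentile points between HU and asynchronous cells and by 23.4 between mimosine and asynchronous cells.

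FAS encodes a death receptor of the TNF receptor superfamily. Its peak was 5481 bp wide in HU (chr10:90748960-90754440), 3499 bp in mimosine and 3773 bp in asynchronous cells. Scores were 2971, 851 and 729, at rank percentiles 92.2, 79.2 and 58.5. The HU peak reached past the asynchronous peak by 710 bp upstream and 998 bp downstream. TP53INP1, which encodes a nuclear stress protein that promotes p53 activity and autophagy, had widths of 7662 bp in HU, 3124 bp in mimosine and 3471 bp in asynchronous cells. Its rank percentiles were 79.3, 72.3 and 66.7 in the same order of lists. The added HU width at TP53INP1 lay on both sides, 2977 bp beyond the asynchronous peak toward lower coordinates and 1214 bp toward higher ones.

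MDM2 encodes the ubiquitin ligase that targets p53 for degradation, and is itself induced by p53 from a second promoter inside the gene. A single HU peak, chr12:69200241-69209847, covered 9607 bp, the widest peak found at any of the 10 genes. The mimosine list held 2 peaks in its place, of 4905 and 753 bp, and the asynchronous list 2 peaks of 5431 and 3506 bp. Over the region, the HU peak covered 1.70 times as many base pairs as the mimosine peaks and 1.07 times as many as the asynchronous peaks. Against the larger asynchronous peak alone it was 1.77 times as wide. Of the regions held by all 3 lists, 11.9% had 2 or more mimosine peaks and 2.81% had 2 or more asynchronous peaks. The main peak ranked at 89.0 in HU, 90.6 in mimosine and 86.3 in asynchronous cells. ZMAT3, which encodes a zinc finger RNA-binding protein, had an HU peak of 4193 bp (chr3:178786267-178790459), mimosine peaks of 2384 and 713 bp, and an asynchronous peak of 3501 bp. Over the region, HU coverage was 1.35 times the mimosine and 1.20 times the asynchronous coverage. The ZMAT3 peak at the start site stood at rank percentile 78.7 in HU, 60.7 in mimosine and 47.2 in asynchronous cells.

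The peaks nearest to the 5 kb limit were at MDM2. The smaller mimosine and asynchronous peaks lay 4045 and 4151 bp downstream of the start, inside the limit, and further HU and asynchronous peaks lay 5554 and 5636 bp upstream, outside it.

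By gene, the HU peak was wider than the asynchronous peak at all 7 genes in regions of exactly 1 peak per list (GDF15, CDKN1A, GADD45A, BTG2, BBC3, FAS and TP53INP1), as it was in 75.1% of the 8653 such regions. It was at least 1.5-fold wider at 4 of these 7 genes, GDF15, CDKN1A, BTG2 and TP53INP1, with ratios of 2.59, 1.72, 1.73 and 2.21, beside 4.14% of the regions. The median ratio was 1.72 over the 7 genes and 1.09 (interquartile range 1.00 to 1.21) over the regions. GADD45A and BBC3, both at 1.10, and FAS at 1.45 were under the fold. More of the added width lay upstream at GDF15 and CDKN1A and more lay downstream at BTG2 and FAS, so the HU peaks did not extend in a common direction.

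Mimosine peaks were narrower than asynchronous peaks at 5 of the 7 genes, and at least 1.5-fold narrower at GDF15 alone, beside 43.7% of the regions. The median width ratio of mimosine over asynchronous was 0.900 over the genes and 0.694 (0.571 to 0.802) over the regions. CDKN1A, at 1.01, and BBC3, at 1.00, had mimosine peaks no narrower than the asynchronous ones, and the mimosine peak was wider in 1.81% of regions. HU peaks were wider than mimosine peaks at all 7 genes, as in 99.9% of the regions, and at least 1.5-fold wider at 6 of the 7 genes, with BBC3 at 1.10 the exception, beside 59.8% of the regions. That median ratio was 1.70 over the genes and 1.59 (1.38 to 1.93) over the regions.

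**Figure D1:**
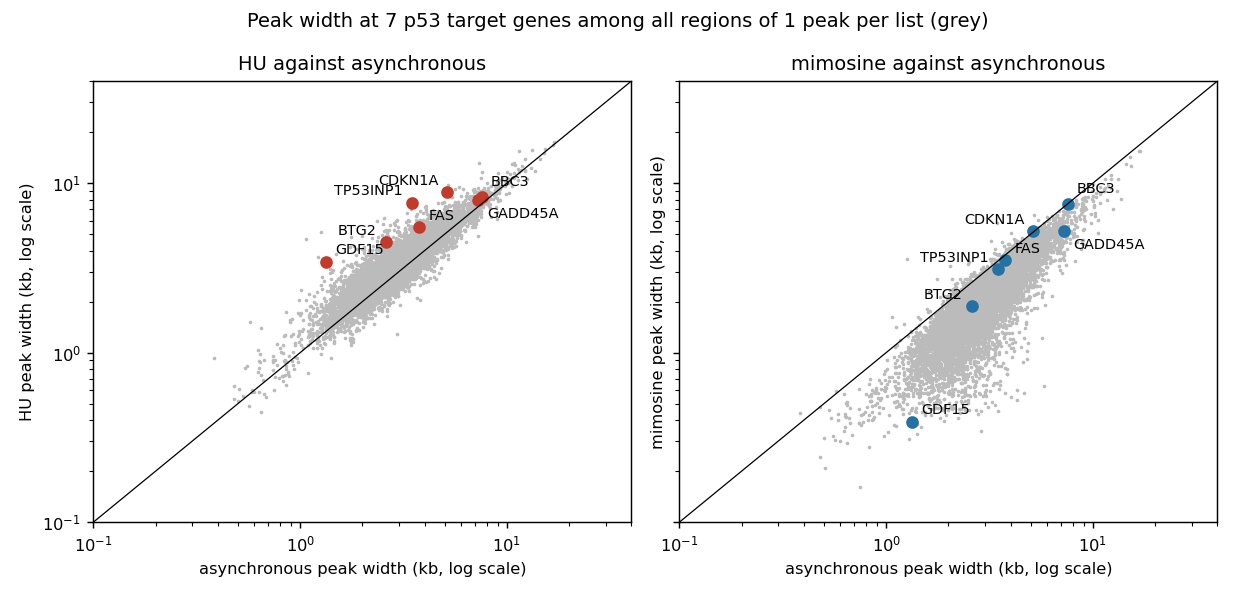
Width of the HU peak (left) and of the mimosine peak (right) against the asynchronous peak in kb on log scales, for the 8653 merged regions of 1 peak per list (grey) and the 7 genes among them (coloured); the line marks equal width. All 7 genes lie above the line on the left, with GDF15 at 2.59 and TP53INP1 at 2.21 times the asynchronous width, and GDF15 lies lowest on the right, at 0.294.

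Because a score also depends on read depth, which is unknown, the lists were set side by side by rank within a list. The median rank percentile of the peaks at the start sites was 85.6 in HU (range 19.5 to 99.8, 10 genes), 79.2 in mimosine (10.1 to 96.7, 9 genes) and 66.7 in asynchronous cells (18.8 to 96.0, 9 genes). Over the 8653 regions of 1 peak per list the medians were 60.5, 54.0 and 59.7. Those regions are not limited to start sites, and PLK2, MDM2 and ZMAT3 lie outside them, so the medians are of unlike sets. HU ranked above asynchronous at all 7 genes in regions of 1 peak per list, beside 56.0% of those regions. It also did so at ZMAT3 and MDM2, which lie outside such regions. At CDKN1A and GADD45A this order came from scores at or above 3100, and with such scores tied the difference was 0.0974 percentile points at each. The order at CDKN1A and GADD45A therefore cannot be told. The difference was at least 20 points at 4 of the 7 genes in regions of 1 peak per list, beside 3.11% of the regions: GDF15 at 45.9, FAS at 33.7, BTG2 at 31.2 and BBC3 at 23.5. ZMAT3, where the mimosine peak was split, differed by 31.5 points.

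The mimosine list also placed several of these genes higher in rank than the asynchronous list did. A higher rank was not always a higher score. The score was 623 in mimosine and 938 in asynchronous cells at TP53INP1, 407 and 508 at ZMAT3, and 1634 and 2011 at MDM2. At BTG2, BBC3 and FAS the mimosine score was the higher. Of all peaks, 21.4% in the mimosine list and 13.1% in the asynchronous list scored under 100. Mimosine ranked above asynchronous at 5 of the 7 genes, beside 31.4% of the regions, and by at least 20 points at BTG2 (20.8), BBC3 (23.4) and FAS (20.7), beside 1.59% of the regions. GADD45A was 1 of the 5, by 0.691 points. Its asynchronous score was 3100, where ranks are not resolved, and its mimosine score was lower, at 2922, so the order there cannot be told. The difference, mimosine minus asynchronous, was -14.0 points at CDKN1A and -8.75 points at GDF15, which went the other way. Between HU and mimosine cells the gain in rank was at least 20 points at GDF15 alone (54.6), beside 12.2% of the regions. HU ranked above mimosine at 6 of the 7 genes, beside 74.8% of the regions. HU minus mimosine was -1.59 points at MDM2, whose mimosine peak was split, and -0.554 points at GADD45A, and it was 0.0875 points at BBC3. The HU peaks of GADD45A and BBC3 scored 3100, where ranks are not resolved. With scores at or above 3100 tied, HU minus mimosine was -0.301 points at GADD45A and 0.341 points at BBC3, so their order cannot be told.

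**Figure D2:**
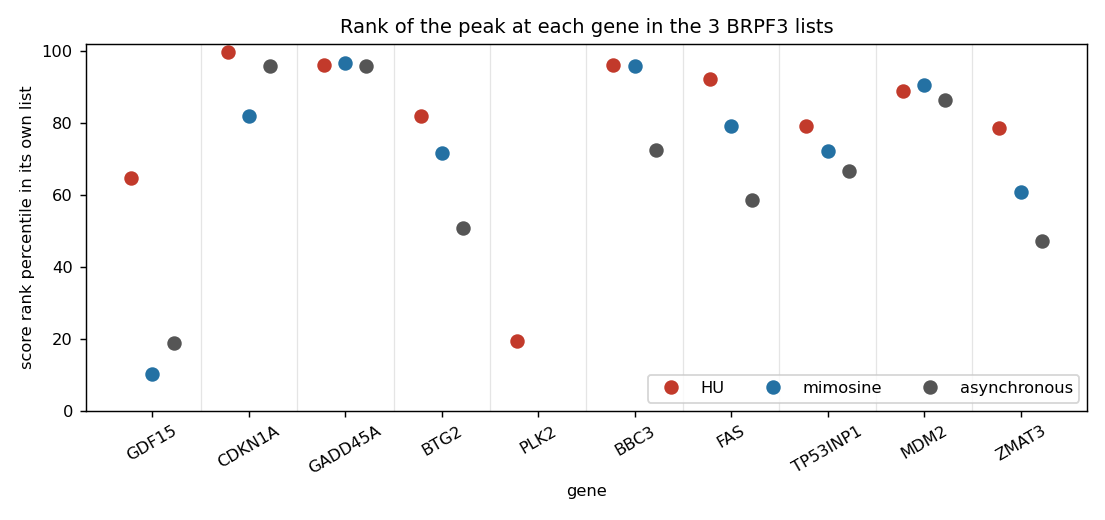
Rank percentile of the score within its own list (vertical axis, 100 is the highest) for the peak at each gene's start site, or the nearest within 5 kb, in HU, mimosine and asynchronous cells, left to right for each gene; each point is 1 peak of 1 library. GDF15 stands at 64.7 in HU against 10.1 and 18.8, GADD45A lies near 96 in all lists, and PLK2 has an HU point only.

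**Figure D3:**
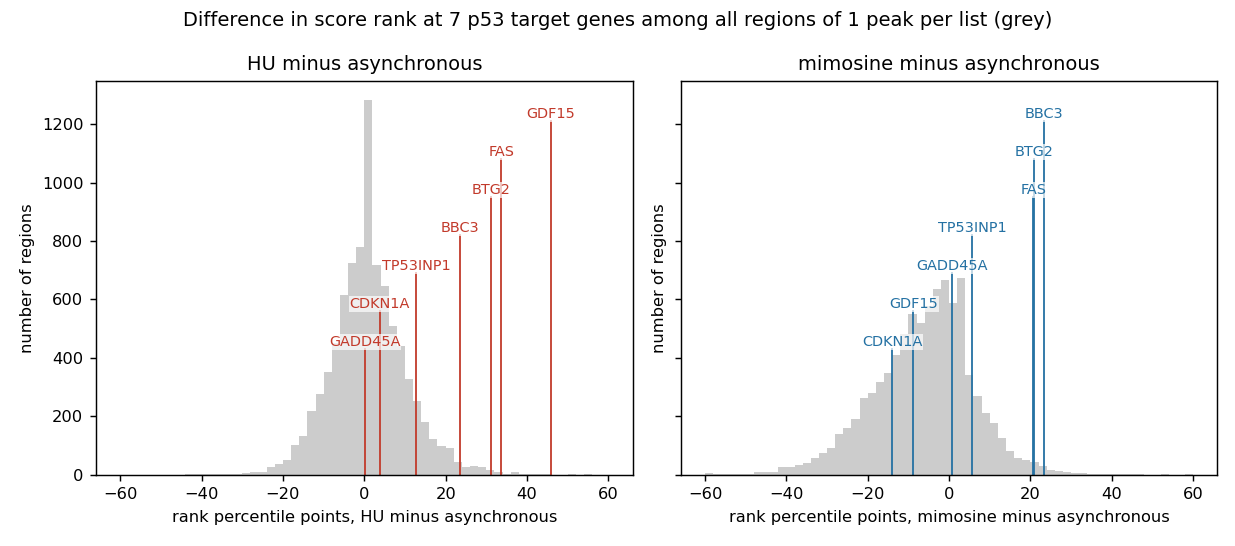
Histograms of the difference in rank percentile for the 8653 regions of 1 peak per list (grey), HU minus asynchronous on the left and mimosine minus asynchronous on the right, with lines for the 7 genes; line height carries no value. On the left all 7 lines lie above 0, from 0.137 at GADD45A to 45.9 at GDF15, and on the right they run from -14.0 at CDKN1A to 23.4 at BBC3. The left lines of GADD45A and CDKN1A come from scores at or above 3100, which are not resolved, and do not order the lists.

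Coverage of the 10 kb around each start site, which needs no choice of a peak, was highest in the HU list, and its median was lower in mimosine than in asynchronous cells, unlike the median rank. HU peaks covered a median of 60.9% of the window over the 10 genes (15.9% at PLK2 to 81.8% at CDKN1A), mimosine peaks 33.1% (0% at PLK2 to 67.0% at BBC3) and asynchronous peaks 36.4% (0% at PLK2 to 72.2% at GADD45A). The whole lists had the same order, with median peak widths of 2898 bp in HU, 1855 bp in mimosine and 2644 bp in asynchronous cells. Peaks of 8 kb or wider lay at 3 genes in the HU list (CDKN1A, MDM2 and BBC3), beside 2.42% of all HU peaks, and at 0 genes in the other 2 lists, beside 0.59% of mimosine and 1.88% of asynchronous peaks. At MDM2 the 2 asynchronous peaks together covered 8937 bp, so the count there depends on their being called apart. Scores of 3100 or more were held by 3 genes in HU (CDKN1A, GADD45A and BBC3), 0 in mimosine and 2 in asynchronous cells (CDKN1A and GADD45A), beside 7.25%, 2.91% and 7.45% of the peaks in each list.

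Sequences that match the p53 consensus were looked for in the 250 bases before each RefSeq start of 8 of the genes. GADD45A and TP53INP1 had no entry. The consensus is a pair of 10-base half-sites with a spacer of up to 13 bases, and up to 2 mismatches were allowed outside the fixed C and G of each half-site; 2.49% of the 35114 windows held a match. MDM2, at its downstream promoter, and FAS, at its most downstream start, held matches, and both had BRPF3 peaks at the start site in all 3 lists. These windows are shown with the match in capitals, each on the plus strand of GRCh38.p14, MDM2 on chromosome 12 and FAS on chromosome 10.
MDM2: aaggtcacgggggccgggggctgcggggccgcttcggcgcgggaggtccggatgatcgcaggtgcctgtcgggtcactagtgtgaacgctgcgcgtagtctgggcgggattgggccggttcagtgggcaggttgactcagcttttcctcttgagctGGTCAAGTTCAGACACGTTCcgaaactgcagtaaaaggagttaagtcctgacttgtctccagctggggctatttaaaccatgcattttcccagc
FAS: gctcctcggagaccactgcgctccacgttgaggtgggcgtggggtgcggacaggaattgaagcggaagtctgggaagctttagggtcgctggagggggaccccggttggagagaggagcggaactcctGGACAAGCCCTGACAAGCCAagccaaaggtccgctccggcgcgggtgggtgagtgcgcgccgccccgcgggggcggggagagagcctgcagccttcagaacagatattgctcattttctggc
The MDM2 match had no spacer and 2 mismatches and began 94 bp before a start that lies 845 bp downstream of the first MDM2 start in the table. The window of a further MDM2 start, 852 bp downstream of the first, held the same match 101 bp upstream. The FAS match also had no spacer and 2 mismatches, and began 122 bp before a start that lies 633 bp downstream of the first; a second match with a longer spacer overlapped it. The windows before the other starts of these genes, and those of GDF15, CDKN1A, BTG2, BBC3, PLK2 and ZMAT3, held no match, which says only that these letters are not in these windows. Because the sequences are of GRCh38 and the peaks of hg19, the matches were not placed on the peaks.

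Several of the genes overlap others. In RefSeq, FAS overlaps ACTA2 and FAS-AS1, TP53INP1 overlaps NDUFAF6, CDKN1A overlaps DINOL, and MDM2 overlaps CPM, while GDF15 hosts the microRNA gene MIR3189. The peak lists carry no gene names, and which of the overlapping genes a peak serves was not tested.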

How the data were processed

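For every BRPF3 library the authors deposited a list of peaks, each with a position and a score, and each list's name gives the HU IgG library as its control. Per the submitters' processing notes, the tools were Bowtie 0.12.8 with SAMtools and bedtools, and MACS 1.4.0; settings are not given in the sources used here. The deposited score has the form of 10 times the negative base-10 logarithm of the caller's p-value, with a lowest value of 50.0, and was used only as a rank within its list. The notes name hg18 and hg19. Positions were read as hg19 and are counted from 1. By hg19 start sites, given to the nearest 10 bp, 8 of the 8 genes with a RefSeq start were near an HU peak. By their GRCh38 starts 2 were. The members were defined by peaks near those same hg19 starts, and hg18 starts were not tried. These counts therefore cannot decide between hg18 and hg19.

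Peaks overlapping by at least 1 bp were merged across lists. Where a gene had several peaks, the one holding or nearest to the start site was used. A fold of 1.5 in width and 20 percentile points in rank were the thresholds for counts. The 10 genes, all of which are named, were chosen with earlier results of these data known. Other p53 targets were not placed, since no annotation of hg19 was used. No reads were analysed, so depth is unknown, and the HU, mimosine and asynchronous groups have 1 library each. Alternative windows, score limits, overlap rules and width measures were tried. Calculations ran in Python 3.11.15 with SciPy 1.17.1, NumPy 2.4.6 and pandas 2.3.3, plots in matplotlib 3.10.9, and the merging was tested on simulated data. Promoter sequences are from RefSeq, GRCh38.p14, with 8 of 10 genes matched.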

Additional observations from a re-analysis of the deposited data

How the results depend on the processing

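The number of genes with a peak within 5 kb and with the start site inside a peak stayed within 1.5 times its value under windows of 1 and 10 kb, a tolerance of 100 bp, scores of 100 or more, and equal numbers of 5766 top-scoring peaks. Within 1 kb, GDF15 was lost from the mimosine and asynchronous lists. With equal numbers, PLK2 was lost from HU, GDF15 from mimosine, and BTG2, GDF15 and ZMAT3 from asynchronous cells. With a window of 1 kb, the median rank percentile was 80.6 in mimosine and 69.7 in asynchronous cells, each over 8 genes. The median width ratios, in the order HU over mimosine, mimosine over asynchronous and HU over asynchronous, became 1.63, 0.914 and 1.58 at scores of 100 or more (6 genes), and 1.54, 0.964 and 1.28 under a reciprocal overlap of 50% (4 genes). As base pairs covered within 5 kb, over 9 genes, HU over mimosine was 1.57 and HU over asynchronous 1.45. As base pairs covered over the merged region, mimosine over asynchronous was 0.885 and HU over asynchronous 1.45. No ratio changed direction under these alternatives. Over all regions of 1 peak per list, HU was wider than mimosine in 99.9% and than asynchronous in 75.1%, and mimosine wider than asynchronous in 1.81%. An unchanged direction therefore says little about these genes. A reciprocal overlap of 50% also removes, by definition, any region where 1 peak is less than 50% as wide as another. Fewer genes entered under the score and overlap rules, which leave out GDF15 and, under the overlap rule, also BTG2 and TP53INP1; any other cause of the shifts was not tested. No paired analysis was possible because each condition has 1 library and no result comes from a test. Unknown depth limits what an absent peak means, and scores at or above 3100 are not resolved.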

Other observations

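Between 5 and 30 kb from the start sites, the HU list held 9 peaks at 5 of the genes (GDF15, BTG2, BBC3, FAS and MDM2), the mimosine list 1 peak at 1 gene (BBC3) and the asynchronous list 7 peaks at 4 genes. The whole lists covered 43.6, 24.5 and 39.1 Mb in the same order. Such counts were not made around other start sites, so they are not shown to be particular to these genes. The BBC3 site lay upstream of the gene and was 2188 bp wide in HU, 1286 bp in mimosine and 2462 bp in asynchronous cells, at rank percentiles 47.1, 43.8 and 34.1. GDF15 had a further HU peak of 2951 bp that ended 9911 bp upstream of its start, at rank percentile 15.5, with no mimosine or asynchronous peak there. At FAS the upstream peak ranked lower in HU, at 0.577, than in asynchronous cells, at 13.8, which is the reverse of the order at its start site. The BTG2 peak downstream of the gene stood at 18.8 in HU and 12.0 in asynchronous cells. Apart from the BBC3 site, the ranks given here lie in the lowest 20% of their lists.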
